A study of Mus musculus with 12 samples.

Results

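Wild-type T helper 17 (Th17) cells were compared with wild-type T helper 1 (Th1) cells, on 3 libraries of each lineage, which are 6 of the 12 libraries of a study of the glucose transporter GLUT3. Both groups were CD4 T cells of the C57BL/6 background, started from naive cells that were activated through CD3 and CD28 and polarized with cytokines, and were collected after 3 days in culture. The cytokines are not named in the labels. The other 6 libraries came from Th17 and Th1 cells of genotype Slc2a3-fl/fl Cd4-cre, in which a Cre recombinase driven by Cd4 regulatory sequence, active in T cells from their development onward, removes the floxed GLUT3 gene. They enter here only where the lineage difference is set against that of GLUT3-deficient cells. Of 45703 genes, 13515 stood at a TPM (reads per exon length, scaled to 1000000 per library) of 1 or more in at least 3 of the 6 wild-type libraries and were tested. The labels do not say whether the replicates came from separate mice or cultures, so the p-values below speak of the variation among these libraries alone, and some of that variation may be technical. Th17 and Th1 values came from separate tables, so a difference between the tables and a difference between the lineages cannot be told apart.

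Naive CD4 T cells take on a lineage according to the cytokines present at activation. Interleukin 12 and interferon gamma act through STAT proteins to induce the T-box factor T-bet, encoded by Tbx21, and cells of the Th1 lineage make interferon gamma against intracellular microbes. Interleukin 6 with TGF-beta acts through STAT3 and the SMAD proteins to induce the Th17 lineage, and Th17 cells make the interleukins 17A and 17F, which act on epithelium and recruit neutrophils.

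The TPM values gave back whole reads for 100% of the values, 19639099, 21414087 and 22563719 in the Th17 libraries and 17119177, 19393771 and 17412231 in the Th1 libraries. A gene with 1 kb of exon sequence would stand at 0.24 to 0.31 TPM with 3 reads. All 14 markers of CD4 T cells were tested, and Cd5 was called among them, higher in Th17, a call lost under 7 of 19 alternative settings. Of the markers of other cells 27 were tested, and Lyz2 of myeloid cells and Klre1 of killer cells were higher in Th17 and Cd8a and Klrk1 higher in Th1. These calls were lost under 10 of 18 settings for Lyz2, 6 of 18 for Klre1, 11 of 18 for Cd8a and none of 19 for Klrk1. The 11 myeloid markers summed to 458 to 507 TPM in Th17 and 323 to 414 TPM in Th1, most of it Cst3, while Adgre1 and S100a9 were at 0 in all 6 libraries. The 8 B cell markers summed to 114 to 153 TPM in Th17 and 88.1 to 112 TPM in Th1. Of the 9 stromal and epithelial markers, 5 were at 0 in all 6 libraries. The part of other cells in the results was not tested. Mitochondrial genes held 0.525% to 0.749% of all TPM in the Th17 and 0.71% to 1.86% in the Th1 libraries.

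Lineage accounted for 46.9% of the sum of squares over all genes tested, the replicate number for 40.9%, and 12.2% was left. Th17 and Th1 libraries numbered 1 deviated from their group means together (correlation of 0.748), as did those numbered 3 (0.558). Th17 library 2 correlated at 0.281 with Th1 library 2 and at 0.289 with Th1 library 3. The genes involved are described further below.

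Between the lineages, 655 of 13515 genes (4.85%) had an adjusted p under 0.05, the threshold for what is named called here. Of these, 369 (2.73% of all genes tested) were higher in Th17 and 286 (2.12%) higher in Th1, by limma on log2(TPM + 1). All differences are given on that scale as Th17 minus Th1, which understates the change of genes at low levels. In all 655 the 3 libraries of 1 lineage stood above the 3 of the other, as they did in 26.9% of all genes tested. With the replicate number as a block, 3360 genes were called, 2454 higher in Th17 (18.2%) and 906 higher in Th1 (6.7%), and these held all 655 in the same direction. The median difference over all genes was 0.15 on the TPM scale and 0.012 after median-of-ratios scaling, with which 270 genes were higher in Th17 and 367 higher in Th1. The split between the directions therefore depended on the scaling (56.3% higher in Th17 with TPM, 42.4% with median-of-ratios scaling). With the block and that scaling together, 1562 were higher in Th17 and 1533 higher in Th1, or 50.5% against 73.0% with the block on TPM. Counts of list members with the block are on the TPM scale unless stated. Without both libraries numbered 2, 45 genes were called, and without both numbered 1, 1414.

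**Figure D1:**
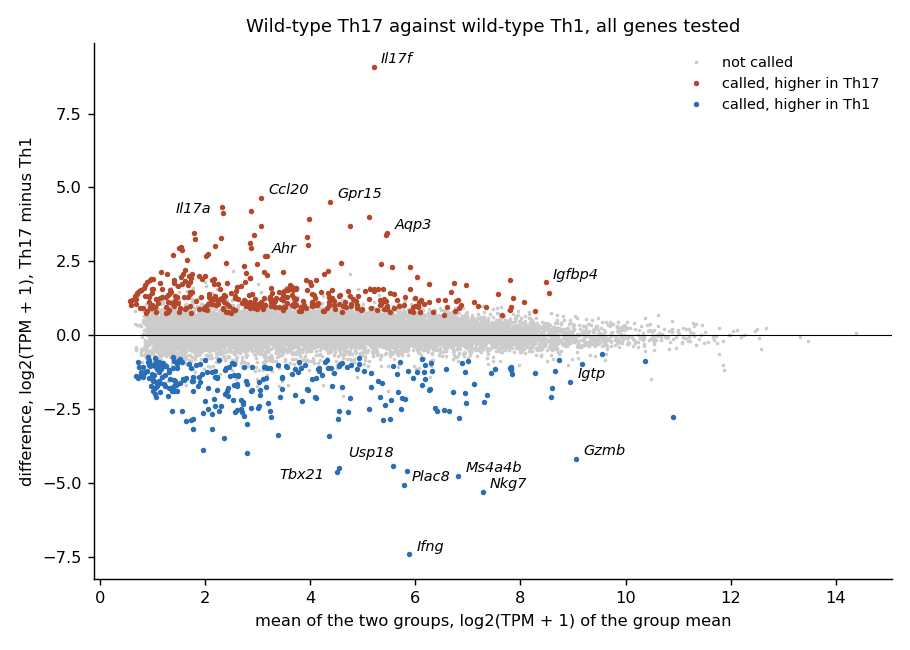
Difference between wild-type Th17 and Th1 (vertical axis, log2(TPM + 1), Th17 minus Th1) against mean level (horizontal axis, log2(TPM + 1)) for 13515 genes. Coloured points are the 369 genes called higher in Th17 and the 286 called higher in Th1, with Il17f at 9.07 and Ifng at -7.41 at the ends.

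The labels were checked against markers of each lineage. Of the Th17 markers Il17a, Il17f, Il23r, Ccr6 and Ccl20, all except Il23r were called higher in Th17. The Th1 markers Tbx21, Ifng, Cxcr3, Il12rb2 and Il18rap were called higher in Th1. Of 54 key genes, 51 were tested, 14 were higher in Th17 and 16 higher in Th1, and 35 were called with the replicate block. Over all genes tested, 2.73% were higher in Th17 and 2.12% higher in Th1, and with the block 18.2% and 6.7%. The key genes were chosen with earlier results of these data known. Beside lineage genes they hold Slc2a3, Slc2a1, Hif1a and Cd4.

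**Figure D2:**
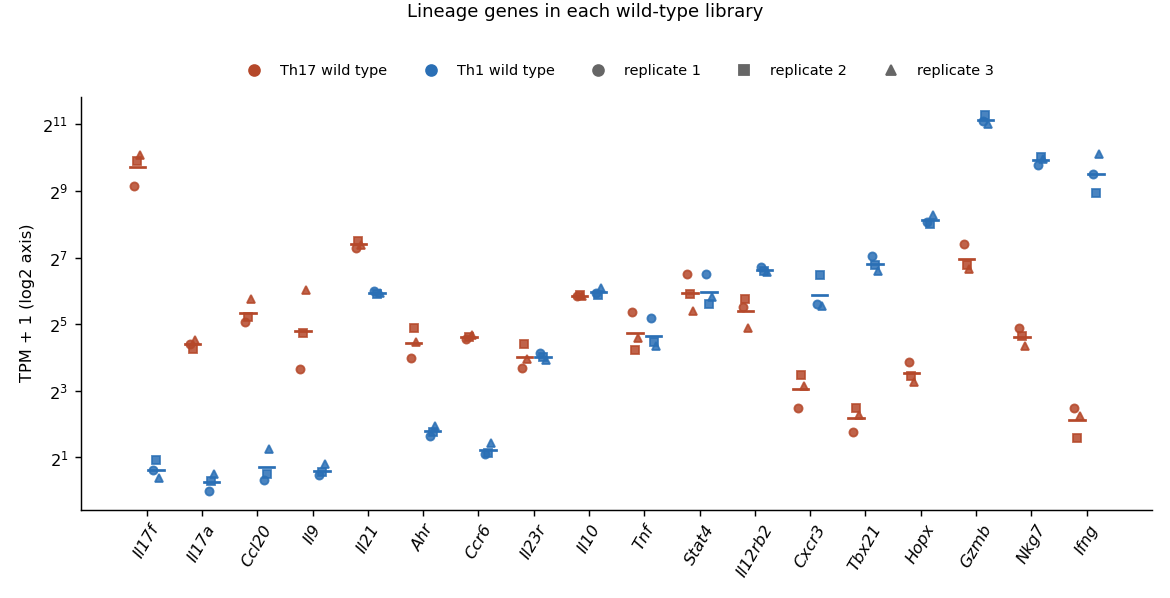
TPM + 1 on a log2 axis for 18 lineage genes in the 3 Th17 and 3 Th1 wild-type libraries, with a bar at the mean of the log2 values and a symbol for each replicate number. Il17f to Ccr6 are higher in Th17, Il23r, Tnf and Stat4 overlap, Il10 is close, and Il12rb2 to Ifng are higher in Th1.

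Among secreted products, Il17f separated the lineages most. It stood at 568, 958 and 1076 TPM in Th17 and at 0.531, 0.886 and 0.307 TPM in Th1. For Il17f the difference was 9.07 (SE 0.27, adjusted p = 2.75e-06). Here and below, the 3 values of a group are those of libraries 1, 2 and 3 in that order. Every Th17 library was far above every Th1 library, and Il17f had the highest mean of 46 cytokine genes in Th17 and the 24th highest in Th1. Il17a, its neighbour on chromosome 1, stood at 20.1, 18.3 and 22 TPM in Th17 and at 0, 0.222 and 0.427 TPM in Th1. For Il17a the difference was 4.13 (SE 0.21, adjusted p = 2.53e-05). Il17a was also near 0 in Th1, and its Th17 level, per exon length, was far below that of Il17f.

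Ccl20, a chemokine that attracts CCR6-bearing cells, stood at 32.2, 36.2 and 53.2 TPM in Th17 and at 0.259, 0.433 and 1.37 TPM in Th1. For Ccl20 the difference was 4.64 (SE 0.30, adjusted p = 8.62e-05). Il9, a mast cell and mucosal cytokine, stood at 11.6, 25.5 and 64.3 TPM in Th17 and at 0.38, 0.476 and 0.732 TPM in Th1. For Il9 the difference was 4.20 (SE 0.50, adjusted p = 0.00213). The Th17 libraries differed among themselves in Il9, with number 3 highest, and all lay above the Th1 libraries. Il21, which supports Th17 and follicular helper cells, was made in both lineages, at 155, 182 and 167 TPM in Th17 and at 62.8, 58.5 and 60.6 TPM in Th1. For Il21 the difference was 1.45 (SE 0.16, adjusted p = 0.00145).

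Cd5l, a secreted lipid regulator linked to the non-pathogenic Th17 state, stood at 4, 7.46 and 10.2 TPM in Th17 and at 0, 0 and 0.147 TPM in Th1. For Cd5l the difference was 2.90 (SE 0.29, adjusted p = 0.000877). Il1rn, the interleukin 1 receptor antagonist, had a difference of 3.03 (adjusted p = 0.00192). These 7 were the called members of 13 tested Th17 cytokines and secreted products, and none was higher in Th1. With the block 10 were higher in Th17 and 1, Il22, higher in Th1. The list's median was 1.45, against 0.15 for all genes. Il22, a product of many Th17 cultures, stood at 1.03, 2.87 and 2.87 TPM in Th17 and at 1.98, 4.69 and 6.22 TPM in Th1 and did not pass the test (adjusted p = 0.359, with the block 0.0207).

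The promoters of 3 genes higher in Th17 and 1 higher in Th1 are shown because of the letters they hold. Il17a, Il17f and Ccr6 hold AGGTCA, a half-site that nuclear receptors recognise, and Nkg7 holds a T-box match. These 4 were picked as examples and do not show a division by lineage. AGGTCA was also in the window of Ccl3, higher in Th1. In Ifng, also higher in Th1, AGGTCA began at base 17 after the start, beyond the 250 bases before it. The T-box match was also in the window of Ccl20, higher in Th17, and another Ccr6 window held no match. The windows are 250 bases before the RefSeq start, 5′ to 3′ on the gene's strand (build GRCm38.p6), at chr1:20730655-20730904 (plus strand), chr1:20784271-20784520 (minus), chr17:8235793-8236042 (plus) and chr7:43436888-43437137 (plus). The Il17f start used is the one in the promoter table and lies inside the deposited span of the gene, which begins further upstream. Capitals mark every match to the motifs searched, on either strand.
Il17a: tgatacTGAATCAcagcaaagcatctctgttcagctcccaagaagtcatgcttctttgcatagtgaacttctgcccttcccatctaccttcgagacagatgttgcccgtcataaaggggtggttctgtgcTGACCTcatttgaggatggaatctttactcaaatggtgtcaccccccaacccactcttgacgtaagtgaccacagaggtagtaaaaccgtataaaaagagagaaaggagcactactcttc
Il17f: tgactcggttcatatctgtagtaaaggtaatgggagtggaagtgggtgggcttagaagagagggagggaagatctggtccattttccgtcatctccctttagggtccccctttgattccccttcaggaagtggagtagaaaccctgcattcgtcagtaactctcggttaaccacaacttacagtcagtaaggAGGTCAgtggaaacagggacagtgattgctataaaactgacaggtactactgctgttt
Ccr6: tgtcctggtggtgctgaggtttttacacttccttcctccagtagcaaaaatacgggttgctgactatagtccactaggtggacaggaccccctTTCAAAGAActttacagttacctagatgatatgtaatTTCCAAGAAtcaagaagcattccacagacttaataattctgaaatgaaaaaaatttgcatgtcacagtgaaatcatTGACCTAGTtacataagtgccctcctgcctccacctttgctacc
Nkg7: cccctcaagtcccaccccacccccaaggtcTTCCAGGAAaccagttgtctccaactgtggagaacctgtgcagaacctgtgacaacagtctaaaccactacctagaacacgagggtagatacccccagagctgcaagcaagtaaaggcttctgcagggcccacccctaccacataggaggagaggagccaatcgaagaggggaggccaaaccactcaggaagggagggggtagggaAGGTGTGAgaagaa
The capitals in Il17a are an AP-1 match, TGANTCA, beginning at -244 and the half-site AGGTCA on the other strand at -120, given as the position of the leftmost base counted from the start of transcription. Il17f holds the half-site at -58. Ccr6 holds it at -44 on the other strand, within the longer form ANTAGGTCA, and 2 STAT-type matches, TTCNNNGAA, at -157 and -120. In Nkg7 the capitals are a STAT-type match at -220 and the T-box match AGGTGTGA at -14.

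Matches in windows of 300 bases, 250 before the start and 50 after it, were counted on both strands over 53 windows of genes called at least 2 higher in Th17 (36 of 51 genes had a window), 77 windows of genes called at least 2 higher in Th1 (59 of 77 genes) and 11160 windows of all tested genes. The half-site AGGTCA was in 22.6%, 16.9% and 12.5% of them, in that order. The interferon-type motif GAAANNGAA was in 3.77%, 19.5% and 7.2%. AP-1 matches were in 18.9%, 18.2% and 5.01%, and STAT-type matches in 11.3%, 15.6% and 7.02%. The T-box letters were in 1 Th17 window, 3 Th1 windows and 103 of all. The longer form ANTAGGTCA, which contains the half-site, was in 1, 1 and 50. The SMAD palindrome GTCTAGAC was in 1, 0 and 30, and the dioxin-response core TNGCGTG in 1, 0 and 931. A match is a description of the letters, and several windows of 1 gene overlap, so these shares carry no test.

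Of 24 regulators linked to Th17 cells, 3 were called higher in Th17. Ahr, the aryl hydrocarbon receptor that senses dietary and microbial ligands, stood at 14.9, 28.8 and 21.1 TPM in Th17 and at 2.14, 2.38 and 2.82 TPM in Th1. For Ahr the difference was 2.67 (SE 0.26, adjusted p = 0.000763). The groups were separate, and number 1 was the lowest Th17 library. Rora, which encodes a nuclear receptor, stood at 6.75, 6.42 and 4.8 TPM in Th17 and at 3.43, 2.28 and 2.38 TPM in Th1, a difference of 0.92 (SE 0.21, adjusted p = 0.0476), and its call was lost under 10 of 18 alternative settings, among them median-of-ratios scaling.

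Sox5, a factor that can act with Maf, was the 1 member higher in Th1, at 0.4, 0.781 and 0.564 TPM in Th17 and at 1.61, 1.81 and 1.69 TPM in Th1, a difference of -0.78 (SE 0.18, adjusted p = 0.0417), lost under 11 of 18 settings. Maf stood at 12.9, 7.09 and 5.96 TPM in Th17 and at 3.28, 2.45 and 3.96 TPM in Th1 (adjusted p = 0.0641, with the block 0.00429). Stat3, which relays interleukin 6 signals, stood at 359.9, 223 and 149 TPM in Th17 and at 248, 108 and 107 TPM in Th1. It did not pass the test (adjusted p = 0.375) and did with the block (adjusted p = 0.0033), and in both lineages library 1 was the highest. With the block 11 of the 24 were higher in Th17 and 1 higher in Th1. The median of the list was 0.41.

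Of 17 Th17 receptors and surface proteins tested, 6 were higher in Th17 and none higher in Th1 (10 and 2 with the block), with a median of 0.71. Ccr6, the receptor for Ccl20, stood at 22.4, 23.8 and 24.7 TPM in Th17 and at 1.14, 1.19 and 1.69 TPM in Th1, a difference of 3.402 (SE 0.19, adjusted p = 3.74e-05), and the 3 libraries of each lineage were close together. Ltb4r1, a leukotriene B4 receptor, stood at 197, 131 and 93.6 TPM in Th17 and at 13.6, 16.1 and 7.84 TPM in Th1. For Ltb4r1 the difference was 3.38 (SE 0.33, adjusted p = 0.000793). Il17re, a subunit of the interleukin 17C receptor, stood at 3.18, 5.1 and 3.57 TPM in Th17 and at 0.221, 0.0615 and 0.248 TPM in Th1. For Il17re the difference was 2.06 (SE 0.20, adjusted p = 0.000853).

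The adjoining membrane protein genes Tmem176a and Tmem176b overlap each other on chromosome 6, on opposite strands, and these libraries do not mark the strand, so their reads cannot be told apart where they overlap. Tmem176a stood at 57.6, 146 and 236 TPM in Th17 and at 4.93, 9.46 and 7.07 TPM in Th1. For Tmem176a the difference was 3.997 (SE 0.46, adjusted p = 0.00184). Tmem176b stood at 44.8, 107 and 142 TPM in Th17 and at 3.63, 10.1 and 5.15 TPM in Th1. For Tmem176b the difference was 3.71 (SE 0.45, adjusted p = 0.00232). In both, Th17 library 1 was the lowest of its group and still above all Th1 libraries. Il6ra, the interleukin 6 receptor, stood at 4.38, 4.39 and 4.24 TPM in Th17 and at 1.48, 2.52 and 1.72 TPM in Th1 (0.89, adjusted p = 0.0398), a call lost under 12 of 18 settings, median-of-ratios scaling included.

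Il23r, the receptor subunit through which interleukin 23 stabilises Th17 cells, did not separate the lineages. It stood at 11.8, 20.04 and 14.5 TPM in Th17 and at 16.5, 15.2 and 14.3 TPM in Th1, with overlapping groups and a difference of -0.016 (SE 0.22, adjusted p = 0.977). Il1r1 reached 1 TPM in 2 Th17 libraries only and was not tested. Its levels were 0.919, 2 and 2.37 TPM in Th17 and 0.263, 0.323 and 0.507 TPM in Th1.

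Outside the Th17 lists, Gpr15, a receptor that directs T cells to the colon, stood at 68.8, 108 and 122 TPM in Th17 and at 3.5, 3.62 and 2.74 TPM in Th1. For Gpr15 the difference was 4.52 (SE 0.25, adjusted p = 3.40e-05). Aqp3, a channel for water and glycerol, stood at 84.1, 178 and 174 TPM in Th17 and at 8.26, 19.7 and 9.2 TPM in Th1. For Aqp3 the difference was 3.47 (SE 0.38, adjusted p = 0.00146). Lbp, which binds bacterial lipopolysaccharide, stood at 23.6, 82.2 and 83.4 TPM in Th17 and at 2.06, 5.09 and 1.59 TPM in Th1. For Lbp the difference was 3.94 (SE 0.51, adjusted p = 0.00293). Th17 library 1 was the lowest of its group in all 3 genes and above every Th1 library.

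Timd2, a receptor of the TIM family, stood at 18.3, 31.2 and 40.1 TPM in Th17 and at 1.78, 0.871 and 1.21 TPM in Th1. For Timd2 the difference was 3.71 (SE 0.30, adjusted p = 0.000298). The keratin gene Krt83 stood at 32.3, 18.1 and 15.4 TPM in Th17 and at 0.118, 0.148 and 0 TPM in Th1, a difference of 4.33 (SE 0.28, adjusted p = 8.62e-05), and Prr29 at 9.43, 10.7 and 11.5 TPM in Th17 and at 0.122, 0 and 0 TPM in Th1. For Prr29 the difference was 3.47 (SE 0.18, adjusted p = 2.53e-05). Among called genes with high levels in Th17, Igfbp4, which binds insulin-like growth factors, stood at 515, 798 and 667 TPM in Th17 and at 154, 255 and 167 TPM in Th1. For Igfbp4 the difference was 1.79 (SE 0.24, adjusted p = 0.00386). Capg, an actin-capping protein, stood at 693, 579 and 569.8 TPM in Th17 and at 246, 244 and 189 TPM in Th1. For Capg the difference was 1.44 (SE 0.18, adjusted p = 0.00231). Both were well expressed in Th1 too.

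Of 16 tested genes of the TGF-beta pathway, 2 were higher in Th17 and none higher in Th1, and 9 and 0 with the block. The SMAD-induced gene Pmepa1, which restrains the pathway, stood at 19.5, 21.9 and 20.6 TPM in Th17 and at 5.47, 6.73 and 7.18 TPM in Th1. For Pmepa1 the difference was 1.54 (SE 0.19, adjusted p = 0.00227). Smad3 itself stood at 7.06, 5.66 and 4.11 TPM in Th17 and at 2.03, 1.48 and 1.54 TPM in Th1, a difference of 1.28 (SE 0.22, adjusted p = 0.0139), lost under 7 of 18 settings, and Smad7 did not pass the test (0.14, adjusted p = 0.77). The median was 0.59. Of 4 tested targets of the aryl hydrocarbon receptor, 1 was called, Cyp1a1, a xenobiotic-metabolising enzyme. It stood at 2.08, 4.17 and 3.78 TPM in Th17 and at 0.634, 0.374 and 0.359 TPM in Th1. For Cyp1a1 the difference was 1.55 (SE 0.24, adjusted p = 0.0068), and the call was lost under 3 of 18 settings. The other 3 were not called, and the median of the 4 was -0.24, toward Th1. With the block 1 was higher in each lineage. With the block and median-of-ratios scaling, 1 was higher in Th17 and 2 higher in Th1.

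**Figure D3:**
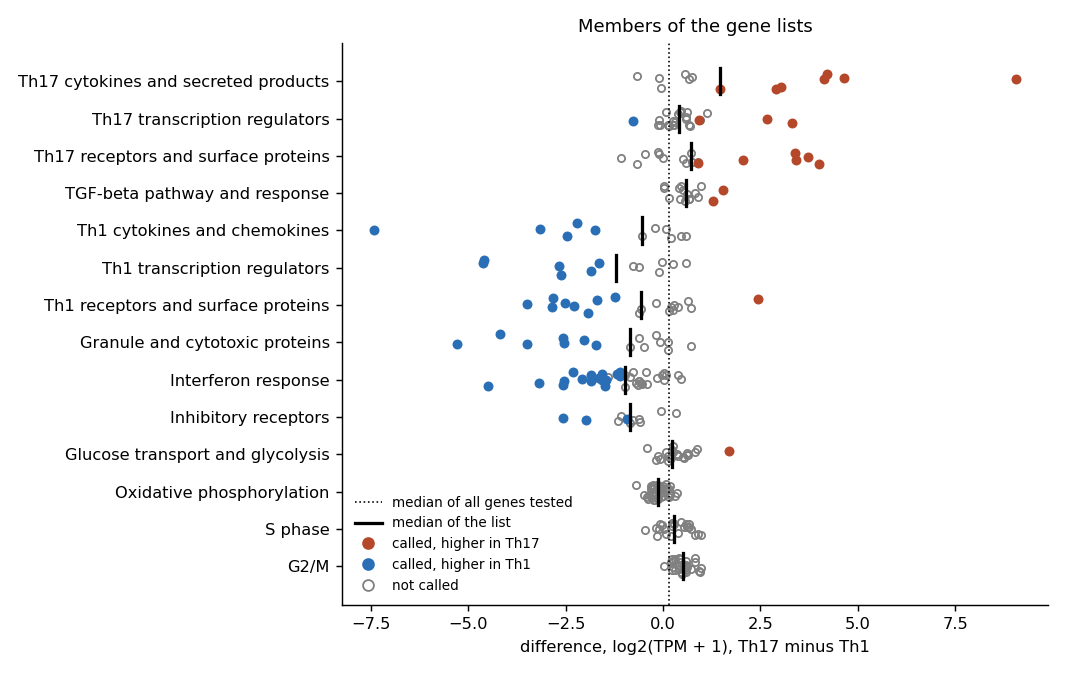
Difference between the lineages (horizontal axis, log2(TPM + 1), Th17 minus Th1) for each tested member of 14 gene lists, with filled points for called genes, a bar at the list's median and a dotted line at the median of all genes, 0.15. Th17 lists extend to the right and Th1, granule and interferon lists to the left, and of the glycolysis, oxidative phosphorylation, S phase and G2/M lists 1 member is called, Slc2a6.

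Among Th1 cytokines, Ifng stood at 4.64, 1.99 and 3.77 TPM in Th17 and at 733, 487 and 1115 TPM in Th1. For Ifng the difference was -7.41 (SE 0.34, adjusted p = 1.98e-05). It was the cytokine gene with the highest mean in Th1 and the 18th in Th17. The neighbouring noncoding gene Ifngas1 had no read in any Th17 library and stood at 10.8, 20.5 and 11.3 TPM in Th1 libraries 1, 2 and 3. The Th1 mean was at least 60.7-fold, and the lowest Th1 library at least 46.1-fold, higher than the mean level that 3 reads in each Th17 library would give. Il3, a growth factor for myeloid cells, stood at 0.441, 0 and 0 TPM in Th17 and at 11.4, 6.74 and 9.67 TPM in Th1. For Il3 the difference was -3.16 (SE 0.25, adjusted p = 0.000253).

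The chemokines Ccl3 and Ccl4, which attract T cells and macrophages, overlap on opposite strands on chromosome 11 and their reads cannot be told apart where they do. Ccl4 stood at 36.2, 29.9 and 36 TPM in Th17 and at 222, 164 and 198 TPM in Th1, a difference of -2.48 (SE 0.19, adjusted p = 0.000209), and Ccl3 at 7.58, 5.54 and 3.78 TPM in Th17 and at 22.3, 24.9 and 44.1 TPM in Th1. For Ccl3 the difference was -2.22 (SE 0.31, adjusted p = 0.00459). Ccl5, another chemokine of this kind, stood at 17.9, 10.4 and 8.28 TPM in Th17 and at 43.8, 63.1 and 26 TPM in Th1, a difference of -1.76 (SE 0.36, adjusted p = 0.0296), and lost its call under 6 of 19 settings. These 5 were the called members of 11 tested, with none higher in Th17 (5 and 1 with the block) and a median of -0.54.

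The members of the Th1 cytokine list that did not pass the test were expressed in both lineages. Tnf stood at 40.6, 17.6 and 23.2 TPM in Th17 and at 35.2, 21.2 and 19.2 TPM in Th1, and Lta, the closely related lymphotoxin gene, at 536, 450.4 and 452 TPM in Th17 and at 432, 412 and 395 TPM in Th1. Il2, the T cell growth factor, stood at 8.28, 5.84 and 8.62 TPM in Th17 and at 12.5, 3.29 and 15.6 TPM in Th1, and Csf2, which encodes the myeloid growth factor GM-CSF, at 5.57, 2.43 and 1.75 TPM in Th17 and at 6.11, 5.22 and 3.3 TPM in Th1. Their differences were 0.067, 0.21, -0.22 and -0.54, with adjusted p of 0.928, 0.474, 0.821 and 0.412. The groups overlapped for Tnf, Il2 and Csf2.

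Of 12 Th1 regulators tested, 6 were higher in Th1 and none higher in Th17 (8 and 1 with the block), with a median of -1.21. Tbx21 stood at 2.38, 4.66 and 3.88 TPM in Th17 and at 131, 109.95 and 95.2 TPM in Th1. For Tbx21 the difference was -4.63 (SE 0.24, adjusted p = 2.53e-05). Hopx, a homeodomain cofactor that T-bet induces, stood at 13.4, 9.999 and 8.7 TPM in Th17 and at 268, 257 and 309 TPM in Th1. For Hopx the difference was -4.59 (SE 0.20, adjusted p = 1.82e-05). The homeobox gene Hlx, a partner of T-bet at Ifng, stood at 1, 0.748 and 0.403 TPM in Th17 and at 13, 9.57 and 7.59 TPM in Th1. For Hlx the difference was -2.67 (SE 0.24, adjusted p = 0.000561). All 3 separated the lineages without a library near the other group.

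Prdm1, which encodes the repressor Blimp-1, stood at 0.453, 0.816 and 0.415 TPM in Th17 and at 10.8, 7.4 and 7.85 TPM in Th1. For Prdm1 the difference was -2.62 (SE 0.21, adjusted p = 0.000298). Irf1, an interferon-induced regulator, stood at 32.1, 50.5 and 35.3 TPM in Th17 and at 128, 181 and 125 TPM in Th1, a difference of -1.86 (SE 0.23, adjusted p = 0.00263), and Irf8 had a difference of -1.64 (adjusted p = 0.0353), lost under 10 of 19 settings. Stat4, the mediator of interleukin 12 signals, and Runx3, a partner of T-bet, did not pass the test (differences of -0.041 and 0.26, adjusted p = 0.957 and 0.738). Eomes, a relative of Tbx21, was under 1 TPM in all 6 libraries and was not tested.

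Of 19 Th1 receptors and surface proteins tested, 8 were higher in Th1 and 1 higher in Th17 (10 and 3 with the block), with a median of -0.57. Cxcr3, the receptor for interferon-induced chemokines, stood at 4.65, 10.2 and 7.92 TPM in Th17 and at 47.3, 88.5 and 45.4 TPM in Th1. For Cxcr3 the difference was -2.82 (SE 0.33, adjusted p = 0.00198). Il12rb2, the inducible subunit of the interleukin 12 receptor, stood at 44.7, 52.9 and 28.6 TPM in Th17 and at 104, 95.4 and 94 TPM in Th1, a difference of -1.24 (SE 0.24, adjusted p = 0.0207), and the call was lost under 7 of 19 settings. It overlaps Serbp1 on the other strand.

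Both chains of the interleukin 18 receptor were higher in Th1. Il18r1 stood at 1.27, 2.4 and 1.05 TPM in Th17 and at 12.9, 12.9 and 14.6 TPM in Th1, a difference of -2.52 (SE 0.23, adjusted p = 0.000636), and Il18rap at 0.393, 0.679 and 0.378 TPM in Th17 and at 4.04, 2.71 and 4.83 TPM in Th1. For Il18rap the difference was -1.69 (SE 0.22, adjusted p = 0.00303). Ly6c2 stood at 15.9, 19 and 13.2 TPM in Th17 and at 106, 146 and 111 TPM in Th1, a difference of -2.84 (SE 0.21, adjusted p = 0.000197), and its near-identical neighbour Ly6c1 at 51.4, 63.9 and 48 TPM in Th17 and at 208, 378 and 247 TPM in Th1, a difference of -2.29 (SE 0.24, adjusted p = 0.00123), so reads may be shared between them. Ifngr2, the signalling chain of the interferon gamma receptor, was the 1 member higher in Th17, at 79.3, 37.8 and 38.2 TPM in Th17 and at 19.2, 5.73 and 4.61 TPM in Th1. For Ifngr2 the difference was 2.44 (SE 0.49, adjusted p = 0.0255), and the call was lost under 7 of 19 settings. Library 1 was the highest of its group in both lineages for Ifngr2, and Th17 libraries 2 and 3 were still above every Th1 library.

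Of 15 granule and cytotoxic genes tested, 7 were higher in Th1 and none higher in Th17 (10 and 1 with the block), with a median of -0.85. Nkg7, a protein of cytotoxic granules, stood at 28.5, 24 and 19.3 TPM in Th17 and at 882, 1033 and 991 TPM in Th1. For Nkg7 the difference was -5.30 (SE 0.19, adjusted p = 5.94e-06). Gzmb, which encodes granzyme B, stood at 168, 108 and 101 TPM in Th17 and at 2210.3, 2464 and 2044 TPM in Th1, a difference of -4.18 (SE 0.21, adjusted p = 2.53e-05), and was the protein-coding gene with the highest Th1 mean among those called. Fasl, the ligand of the death receptor Fas, stood at 0.532, 0.323 and 0.691 TPM in Th17 and at 20.9, 15.2 and 12.5 TPM in Th1. For Fasl the difference was -3.49 (SE 0.23, adjusted p = 0.000111).

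Prf1, which encodes the pore-forming perforin, stood at 4.1, 2.85 and 2.27 TPM in Th17 and at 17.4, 18.4 and 11.4 TPM in Th1. For Prf1 the difference was -2.04 (SE 0.26, adjusted p = 0.00257). Serpinb9, an inhibitor of granzyme B, stood at 3.13, 2.83 and 2.56 TPM in Th17 and at 24.2, 15 and 27.8 TPM in Th1. For Serpinb9 the difference was -2.56 (SE 0.25, adjusted p = 0.000793). Of the killer cell markers beside these, Ncr1 was at 0 or at most 0.0671 TPM and Klrk1, also found on activated T cells, stood at 1.88, 1.95 and 2.04 TPM in Th17 and at 15.4, 13.1 and 13.1 TPM in Th1. The summed level of the 8 killer and CD8 cell markers was 32 to 51.5 TPM in Th17 and 48.1 to 62.4 TPM in Th1, and its part in the granule genes was not tested. In bulk RNA, fewer cells that express a gene and less RNA in each cell cannot be told apart.

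Of the 38 gene lists, that of interferon-induced genes held the most called members, and it was longer than the lineage lists. Of 36 tested out of 44, 16 were higher in Th1 and none in Th17 (27 and 1 with the block), with a median of -0.98. Over all genes tested, 2.12% were higher in Th1. Some shorter lists had larger shares called, among them 7 of 13 Th17 secreted products and 6 of 12 Th1 regulators. Usp18, which removes the ubiquitin-like ISG15, stood at 7.61, 2.77 and 2.13 TPM in Th17 and at 94.2, 105 and 114 TPM in Th1. For Usp18 the difference was -4.49 (SE 0.35, adjusted p = 0.000253). Iigp1, an immunity-related GTPase against vacuolar parasites, stood at 0.166, 0.506 and 0.557 TPM in Th17 and at 6.85, 12.3 and 18.5 TPM in Th1. For Iigp1 the difference was -3.18 (SE 0.32, adjusted p = 0.000952). The GTPases Tgtp1 and Tgtp2 are near-identical neighbours whose reads may be shared, and had differences of -2.57 and -2.55.

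Igtp, another GTPase of this family, stood at 217, 359 and 284 TPM in Th17 and at 684, 969 and 894 TPM in Th1. For Igtp the difference was -1.58 (SE 0.22, adjusted p = 0.00488). The immunoproteasome subunit Psmb9 stood at 288, 256 and 253 TPM in Th17 and at 552, 716 and 568 TPM in Th1. For Psmb9 the difference was -1.19 (SE 0.17, adjusted p = 0.00448). Both were also abundant in Th17 cells, with no overlap between the groups.

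Of 11 inhibitory receptors and ligands, 3 were higher in Th1 and none in Th17 (9 and 1 with the block), with a median of -0.86. Havcr2, which encodes TIM-3, stood at 0.137, 0.393 and 0.115 TPM in Th17 and at 7.75, 5.51 and 5.51 TPM in Th1. For Havcr2 the difference was -2.57 (SE 0.20, adjusted p = 0.000269). Pdcd1lg2, a ligand of PD-1, stood at 2.11, 1.28 and 1.38 TPM in Th17 and at 12.4, 7.01 and 8.82 TPM in Th1, a difference of -1.99 (SE 0.25, adjusted p = 0.0024), and Tigit at 0.768, 0.546 and 0.453 TPM in Th17 and at 2.31, 2.1 and 1.61 TPM in Th1. For Tigit the difference was -0.92 (SE 0.19, adjusted p = 0.0263), and the call was lost under 7 of 18 settings.

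Large differences toward Th1 were also found for other genes. The noncoding gene AW112010 had the highest level of all called genes, at 590.3, 859 and 757 TPM in Th17 and at 3956, 5883 and 5235 TPM in Th1. For AW112010 the difference was -2.77 (SE 0.20, adjusted p = 0.000197). Plac8 stood at 8.61, 9.71 and 7.28 TPM in Th17 and at 257, 388 and 308 TPM in Th1. For Plac8 the difference was -5.05 (SE 0.21, adjusted p = 1.45e-05). Ms4a4b, a membrane protein of activated T cells, stood at 26.9, 18.4 and 16.7 TPM in Th17 and at 472, 628 and 643 TPM in Th1, a difference of -4.76 (SE 0.23, adjusted p = 2.05e-05), and its paralog Ms4a4c at 0.884, 0.812 and 0.515 TPM in Th17 and at 22.4, 27.6 and 30.4 TPM in Th1. For Ms4a4c the difference was -3.997 (SE 0.20, adjusted p = 2.53e-05). The serpin Serpinb5 stood at 11.1, 10.03 and 6.99 TPM in Th17 and at 233, 227 and 191 TPM in Th1. For Serpinb5 the difference was -4.41 (SE 0.21, adjusted p = 2.05e-05). The groups were separate by a wide margin in each.

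Genes of homing and memory divided between the lineages. Dapl1 was higher in Th1, at 1.63, 4.21 and 2.06 TPM in Th17 and at 20.3, 14.1 and 17.8 TPM in Th1, a difference of -2.39 (SE 0.28, adjusted p = 0.0021), with no overlap. Tcf7, which encodes the stem-like T cell factor TCF-1, was higher in Th17, at 25, 41.6 and 30.5 TPM in Th17 and at 9.51, 10.4 and 13.7 TPM in Th1. For Tcf7 the difference was 1.44 (SE 0.24, adjusted p = 0.0115). It overlaps Skp1, and its call was lost under 4 of 19 settings. Of 23 chemokine receptor and homing genes, 5 were higher in Th17, namely Ccr4 (1.56), Ccr6, Gpr15, Itgb7 and Fut7, and 4 higher in Th1, among them Cxcr3 and Gcnt1. The calls were lost under 10 of 19 settings for Itgb7, median-of-ratios scaling included, and 11 of 18 for Gcnt1. With the block 7 of the 23 were higher in Th17 and 6 higher in Th1. Of 14 naive and memory genes tested, 3 were higher in Th17 and 2 higher in Th1 (6 and 3 with the block). The shares over all genes tested were 2.73% and 2.12%, and 18.2% and 6.7% with the block. Cd40lg, the helper ligand for B cells, was higher in Th1, at 30.7, 21.5 and 22.5 TPM in Th17 and at 123.4, 86 and 124 TPM in Th1, a difference of -2.11 (SE 0.22, adjusted p = 0.00123), and Nt5e, which encodes the adenosine-producing enzyme CD73, higher in Th17, at 14.6, 6.46 and 7.56 TPM in Th17 and at 0.784, 0.339 and 0.531 TPM in Th1. For Nt5e the difference was 2.696 (SE 0.29, adjusted p = 0.00135).

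Of 7 tested Th2 genes 1 was called in each direction, of 15 regulatory T cell genes 3 were higher in Th17 and 1 in Th1, and of 12 follicular helper genes also 3 and 1. The shares over all genes tested were 2.73% and 2.12%. In the same order, the block gave 4 and 1, 7 and 3, and 3 and 4, against 18.2% and 6.7% of all genes. The medians were 0.74, 0.34 and -0.30, against 0.15 for all genes. The defining regulators of these lineages were not among the called genes. Gata3, the regulator of Th2 cells, stood at 4.79, 3.12 and 2.49 TPM in Th17 and at 7.19, 2.97 and 2.8 TPM in Th1 (adjusted p = 0.78). Il4, the Th2 cytokine, stood at 10.5, 3.49 and 4.01 TPM in Th17 and at 5.3, 4.93 and 4.74 TPM in Th1 (adjusted p = 0.904). The groups overlapped for both. Foxp3 of regulatory T cells, which overlaps Ccdc22 on the other strand, stood at 3.45, 7.67 and 5.65 TPM in Th17 and at 4.5, 5.9 and 6.91 TPM in Th1 (adjusted p = 0.901). Il10, an anti-inflammatory cytokine that both lineages can make, stood at 56.4, 57.5 and 56.9 TPM in Th17 and at 60.1, 58.1 and 67.1 TPM in Th1, with a difference of -0.11 (SE 0.16, adjusted p = 0.725). The groups did not overlap, but stood close together. Bcl6 of follicular helper cells did not reach 1 TPM in any of the 6 libraries and was not tested.

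Applying limits of at least 5 TPM in all 3 libraries of 1 lineage and under 0.5 TPM in all 3 of the other left 5 genes restricted to Th17 and 6 restricted to Th1. With a low limit of 1 TPM in place of 0.5 there were 11 and 11. The Th17 genes were Il17a, Krt83, Prr29, Ppp1r14c (6.26, 11.3 and 12.5 TPM in Th17) and the microRNA gene Mir7056. Mir7056 rests on 6, 4 and 4 reads and lies within Ptpn5 on the same strand, so its reads may be those of Ptpn5. The Th1 genes were Ifngas1, Il3, Havcr2, Gng11 (10.1, 6.54 and 6.11 TPM in Th1), a G protein subunit, Dclk1 (8.05, 6.18 and 10.01 TPM), a kinase, and Ffar2 (5.31, 11.5 and 7.8 TPM), a receptor for short-chain fatty acids. Il17f and Ifng were not among them, since each stood above 0.5 TPM in at least 1 library of the other lineage.

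Few metabolic and cell cycle genes were called between the lineages. Few of all genes tested were, 2.73% higher in Th17 and 2.12% higher in Th1. Slc2a6, a lysosomal hexose transporter, was the 1 called gene of 24 in glucose transport and glycolysis, at 17.9, 34.8 and 32.1 TPM in Th17 and at 4.71, 9.04 and 10.3 TPM in Th1. For Slc2a6 the difference was 1.70 (SE 0.33, adjusted p = 0.0231), and the call was lost under 6 of 19 settings. None of 42 oxidative phosphorylation, 26 TCA cycle, 29 hypoxia, 25 S phase or 30 G2/M genes was called by limma. At an unadjusted p under 0.05 there were 1, 3, 1, 4 and 5 of them in that order, and voom called 0 in each list. Of all 13515 genes tested, 2754 had an unadjusted p under 0.05 and voom called 676. With the block, 22 of the 30 G2/M genes and 11 of the 25 S phase genes were higher in Th17 and none higher in Th1, as were 10 of the 24 glycolysis genes and 12 of 30 genes of serine metabolism and the ATF4 response. With the block and median-of-ratios scaling these counts were 13, 9, 6 and 8, and 0, 0, 1 and 1 were higher in Th1. Over all 13515 genes tested, the block gave 18.2% higher in Th17 and 6.7% higher in Th1. With the scaling added, 1562 and 1533 of all genes were. Of the 42 oxidative phosphorylation genes, 1 was higher in Th17 and 7 higher in Th1 with the block. With the scaling added, 0 and 10 were. For the 26 TCA cycle genes these counts were 6 and 0, then 2 and 3. For the 29 hypoxia genes they were 5 and 1, then 1 and 2. With that scaling and no block the medians were 0.34 for G2/M, 0.12 for S phase, 0.078 for glycolysis and 0.24 for serine metabolism, against 0.012 for all genes.

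Across replicate numbers, 2692 genes (19.9%) were called in an additive limma model of lineage and number. Without both libraries numbered 1, 142 were called, and without both numbered 2, 4497. Of 29 hypoxia and HIF-1 targets, 26 were called, all higher in library 1 of both lineages. In that list the median difference of library 1 from the mean of 2 and 3 was 1.14 in Th17 and 1.17 in Th1. Ndrg1, a stress gene induced by low oxygen, stood at 1114, 329.99 and 168 TPM in Th17 and at 1092, 233 and 137 TPM in Th1. Ero1a, an oxidase of protein folding, stood at 1631, 386 and 241 TPM in Th17 and at 1521, 258 and 207 TPM in Th1, and Adm, which encodes the peptide adrenomedullin, at 53, 3.72 and 1.58 TPM in Th17 and at 41.9, 4.61 and 2.37 TPM in Th1.

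Slc2a3, the gene that the study targets, was among the 10 named genes with the smallest p for the number, at 379, 109 and 44.6 TPM in Th17 and at 398, 95.6 and 64.7 TPM in Th1. It did not pass the test between the lineages, with a difference of -0.13 (SE 0.82, adjusted p = 0.945), and it overlaps the pseudogene Gm4482, with which reads may be shared. Slc2a1, which encodes the transporter GLUT1, stood at 609, 349 and 252 TPM in Th17 and at 475, 282 and 243 TPM in Th1 (adjusted p = 0.732). Hif1a, the regulator of the response to low oxygen, stood at 338, 318 and 202 TPM in Th17 and at 317, 203 and 245 TPM in Th1 (adjusted p = 0.76). In all 3 genes the groups overlapped. Of 24 glycolysis and glucose transport genes 18 were called for the number, 17 of them higher in library 1 of both lineages.

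Cell cycle genes were lower in library 1. Of 30 G2/M genes 28 were called, all lower in library 1 of both lineages, with medians of -1.03 in Th17 and -1.12 in Th1. Of 25 S phase genes 21 were called, all lower, with medians of -0.95 and -0.80. Ribosome biogenesis held 18 called genes of 32, 17 of them lower. Of the 36 interferon genes 10 were called for the number, 3 of them higher and 7 lower in library 1 of both lineages. Of the 13 Th17 secreted products 5 were called, 3 higher and 2 lower. The share called for the number over all genes tested was 19.9%. What the numbers stand for is not stated in the labels.

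**Figure D4:**
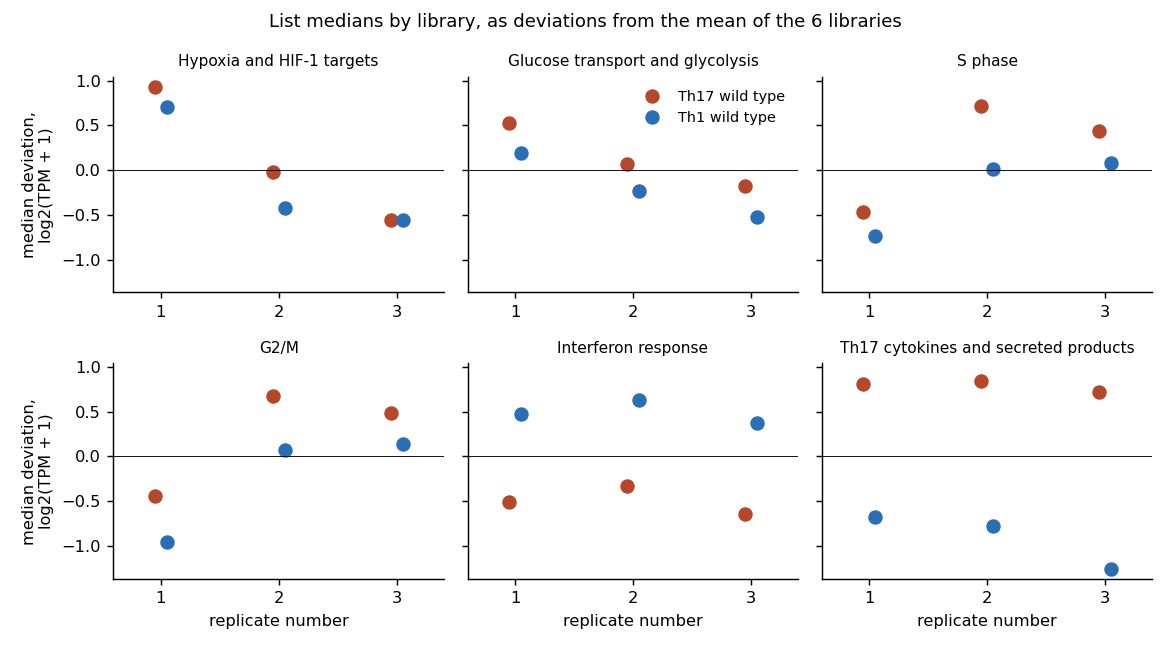
Median deviation of 6 gene lists from the mean of the 6 wild-type libraries (vertical axis, log2(TPM + 1)) by replicate number (horizontal axis), Th17 and Th1 in separate colours. Hypoxia and glycolysis lists are highest and S phase and G2/M lists lowest in library 1 of both lineages, while the interferon and Th17 lists separate by lineage at every number.

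The lineage difference was set against that of GLUT3-deficient cells in a limma model of all 12 libraries. In these, Slc2a3 stood at 5.14, 18.7 and 3.3 TPM in the Th17 and 6.79, 4.49 and 7.97 TPM in the Th1 GLUT3-deficient libraries, below all wild-type libraries. The lineage difference depended on genotype in 93 of 14579 genes (0.638%), and among the key genes in 8. The comparison shares the wild-type libraries with the results above, and Th17 GLUT3-deficient library 2 stood apart, with Tbx21 at 19.2, 81.2 and 10.3 TPM in libraries 1, 2 and 3 of that group. Without that library 189 genes were called, and without wild-type Th17 library 3, 32.

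Il10 had the smallest adjusted p of the 8. It stood close between the wild-type lineages, and in GLUT3-deficient cells stood at 45.5, 47.5 and 56.5 TPM in Th17 and 567, 462 and 357 TPM in Th1. Nkg7 and Gzmb differed more between the lineages in wild type than in GLUT3-deficient cells, in which Th17 held 117, 208 and 146 TPM of Nkg7 and 904, 1386 and 1014 TPM of Gzmb. GLUT3-deficient Th1 held 661, 861 and 641 TPM of Nkg7, below all wild-type Th1 libraries. Its Gzmb, at 6204, 6781 and 4412 TPM, lay above all wild-type Th1 libraries. Ccl20 differed less in wild type, with 423, 366 and 629 TPM in GLUT3-deficient Th17. Tmem176a and Tmem176b were lower in Th1 by a wide margin in wild type, and in GLUT3-deficient Th1 stood at 77, 88.8 and 68 TPM and 65.6, 74.6 and 59.7 TPM. Il17f (difference of 9.07 in wild type and 6.69 in GLUT3-deficient cells, adjusted p of the interaction = 0.0547), Ifng (-7.41 and -6.65, adjusted p = 0.9997) and Tbx21 (adjusted p = 0.859) did not pass the test.

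**Figure D5:**
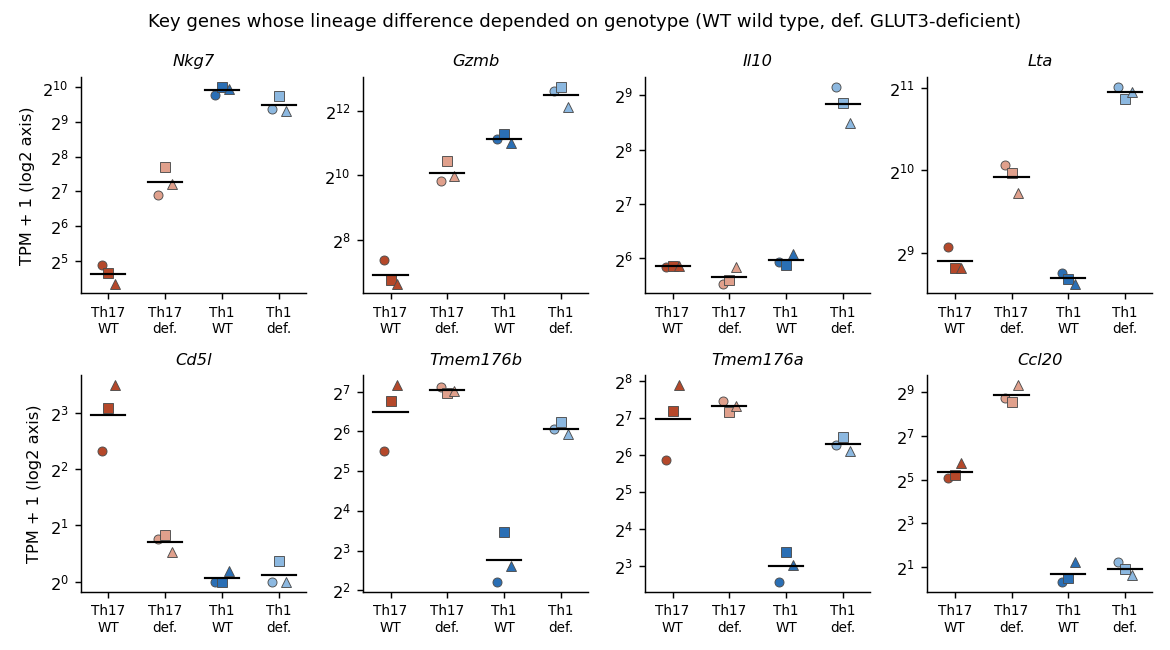
TPM + 1 on log2 axes in the 12 libraries for the 8 key genes whose lineage difference depended on genotype, with a bar at the mean of the log2 values and a symbol for each replicate number. Il10 is close between the lineages in wild type and apart in GLUT3-deficient cells, and the Tmem176 pair is far apart in wild type and closer in GLUT3-deficient cells.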

How the data were processed

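RNA of 3 wild-type Th17 and 3 wild-type Th1 libraries was compared. The authors deposited 1 table of TPM per lineage, with decimal commas. The build GRCm38.p6 and the tools STAR 2.7.2b, DESeq2 1.24.0, featureCounts 1.6.4, bcl2fastq 2.20.0.422 and cutadapt are listed, without roles, per the submitters' processing notes. The labels' protocols name SMART-Seq v4 and Nextera XT kits, which do not mark strand. Every library summed to 1000000 TPM over the same 45703 genes and exon lengths, and gene starts equalled RefSeq GRCm38.p6 for 45697. TPM times length gave whole reads within 0.02 reads, which allowed voom as an alternative. Floors and intervals of reads cover counting error only.

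Groups and numbers came from the sample titles. Genes that reached 1 TPM in 3 or more libraries were tested with limma 3.58.1 in R 4.3.3 on log2(TPM + 1) with a mean-variance trend, two-sided, Benjamini-Hochberg threshold 0.05. The fit was also run on simulated reads that held no effect of the replicate number. That run therefore cannot show how the fit behaves with such an effect. Deviations of same-numbered Th17 and Th1 libraries correlated at 0.748, 0.281 and 0.558 and those of other numbers at -0.638 to 0.289, so numbers were taken to pair libraries, on this alone, and the replicate block was an alternative. The 0.289 was between Th17 library 2 and Th1 library 3, so these values do not show a pairing for number 2. Deviations within a group sum to 0, so these correlations depend on each other. All 775 entries of 38 lists matched a gene, 4 by an older symbol.

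Genes and lists were chosen with earlier results of these data known. Named were 54 key genes, the 15 largest called differences in each direction (mean of 5 TPM, separate groups), the 4 called genes of each list with the smallest p, the 10 most abundant called genes per lineage, 10 genes for the number and the restricted genes. Il1rn, Irf8, Ifngr2, AW112010, Itgb7, Fut7, Gcnt1 and the genes of the closing observations were named after their values were seen. Some genes that the lists and counts include are not reported here by name. Promoters are from RefSeq (GRCm38.p6). Alternatives were other scalings, filters, pseudocounts, voom, the block, all 12 libraries and leaving out libraries.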

Additional observations from a re-analysis of the deposited data

Results flagged for a closer look

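The lineage difference (Th17 minus Th1) in wild type minus that in GLUT3-deficient cells passed the interaction test (limma, 12 libraries, adjusted p under 0.05) for 8 key genes. It was 3.05 for Il10 (adjusted p = 0.000358), 2.97 for Tmem176a (adjusted p = 0.0369), 2.75 for Tmem176b (adjusted p = 0.0498), 2.31 for Cd5l (adjusted p = 0.018) and 1.236 for Lta (adjusted p = 0.0176). It was -3.27 for Ccl20 (adjusted p = 0.00584), -3.08 for Nkg7 (adjusted p = 0.00103) and -1.78 for Gzmb (adjusted p = 0.0346). Cd5l stood at 0.686, 0.786 and 0.436 TPM in GLUT3-deficient Th17 libraries 1, 2 and 3, below all wild-type Th17 libraries. Lta stood at 1069, 1002 and 845 TPM in GLUT3-deficient Th17 and 2063, 1868 and 1984 TPM in GLUT3-deficient Th1, above all wild-type libraries.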

How the results depend on the processing

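Of 98 named genes called between the lineages, 31 were called under every alternative, 34 lost the call only without both libraries numbered 2, and 33 under more alternatives. The count of 655 (369 higher in Th17, 286 in Th1) became 3360 (2454 and 906) with the replicate block and 3095 (1562 and 1533) with the replicate block and median-of-ratios scaling, the latter chosen after seeing the data. Also chosen then, leaving out both libraries of a number gave 1414 (966 and 448) without number 1, 45 (13 and 32) without number 2 and 196 (82 and 114) without number 3. Leaving out 1 library gave 282 to 871 called, 125 to 540 higher in Th17 and 157 to 331 in Th1. The count of calls was 871 without Th17 library 1, 282 and 373 without Th17 libraries 2 and 3, and 341 and 351 without Th1 libraries 2 and 3. A filter at 5 TPM gave 186 higher in Th1 and no filter 233 higher in Th17. Higher in Th17 were 56.3% of calls, 42.4% with median-of-ratios, 41.1% with quantile scaling and 49.7% with voom on recovered reads. The 2692 genes called for the number became 142 without both libraries numbered 1 and 4497 without number 2, and 996 to 4032 on leaving out 1 library, with 996 without Th17 library 1 and 1407 without Th1 library 1. The interaction count of 93 was 85 with the replicate block, 109 with median-of-ratios scaling and 32 to 189 on leaving out 1 library, moving by over 1.5 times for 8 of the 12 libraries: all 3 GLUT3-deficient Th1, GLUT3-deficient Th17 library 2, and wild-type libraries 2 and 3 of both lineages. With a low limit of 1 TPM, 11 and 11 genes were restricted. The replicate block also added calls, among them Cd4, Stat3, Maf and Il22.

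Among the named genes, directions turned for 13, none of them called in any fit of the lineage difference, and the cause was not tested. On leaving out 1 library the difference ran from -0.30 to 0.18 for Foxp3, -0.39 to 0.17 for Gata3, -0.82 to 0.16 for Il2, -0.21 to 0.15 for Il23r, -0.34 to 0.34 for Il4, -0.13 to 0.63 for Runx3, -0.10 to 0.53 for Slc2a1, -0.94 to 0.64 for Slc2a3, -0.0091 to 0.31 for Smad7, -0.26 to 0.17 for Socs3, -0.32 to 0.22 for Stat4 and -0.26 to 0.32 for Tnf. With median-of-ratios scaling, blocked or not, Hif1a was at -0.0061, Il4 at -0.0396 and Tnf at -0.087. Quantile scaling gave -0.073 for Il4 and -0.12 for Tnf, and voom -0.0146 and -0.0195. Without both libraries numbered 1, Foxp3 was at 0.0395, Il23r at 0.20 and Il4 at -0.30. Without number 2, Hif1a was at -0.093. Without number 3, Foxp3 was at 0.012, Il2 at 0.066, Slc2a3 at 0.062, Stat4 at 0.14 and Tnf at -0.029.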

Other observations

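Called genes also followed each other along chromosomes, in 14 runs of at least 3 successive tested protein-coding genes called in 1 direction. The runs were observed after the values were seen and with no test, and the number expected by chance was not worked out. Genes that were not tested were passed over, so members of a run need not adjoin. The Th1 run of S100a6, S100a11 and S100a10 spans bases 90612894 to 93564645 of chromosome 3. Cd86, a costimulatory ligand usually found on antigen-presenting cells, lies in a Th17 run with Ildr1 and Eaf2 and stood at 52.6, 43.1 and 35.6 TPM in Th17 and at 4.89, 5.11 and 3.31 TPM in Th1, a difference of 3.04 (SE 0.23, adjusted p = 0.000209). The interferon-inducible genes Ifi209, Ifi204, Mndal, Ifi211 and Ifi205 formed a Th1 run of 5 on chromosome 1, and Ifi205 stood at 0.29, 0.388 and 0.39 TPM in Th17 and at 4.39, 3.23 and 4.34 TPM in Th1. The chemokine receptor genes Cxcr1 and Cxcr2, best known from neutrophils, were higher in Th1 as well, Cxcr1 at 3.74, 2.06 and 1.5 TPM in Th17 and at 23.4, 17.6 and 12 TPM in Th1, a difference of -2.45 (SE 0.31, adjusted p = 0.00277). S100a6, a calcium-binding protein, stood at 26, 46.6 and 57 TPM in Th17 and at 219, 322 and 343 TPM in Th1, a difference of -2.79 (SE 0.30, adjusted p = 0.00141). Paralogs lie next to each other in several runs, so reads shared between them cannot be told apart.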
